A study of Xenopus tropicalis with 12 samples.

Results

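Cholesterol synthesis genes were followed through metamorphosis in the brain of the frog Xenopus tropicalis. The set was defined by name: hmgcs1, acat2, idi1, fdps, fdft1, sqle, lss, dhcr7 and stard4. It was chosen with earlier results of these data known, so its counts beside the shares of all models are a description. In the deposited annotation 6 of these 9 names were carried by a gene model, out of 33875 gene models in all. The models were XLOC_038882 (acat2), XLOC_027300 (hmgcs1), XLOC_030041 (sqle), XLOC_008011 (lss), XLOC_021248 (dhcr7) and XLOC_005928 (stard4). For sqle, whose name is on more than 1 model, the model with the most counts was taken. The names idi1, fdps and fdft1 matched no model and are not analysed here.

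RNA was sequenced from dissected middle brain, the block of tissue with the preoptic area, hypothalamus and thalamus, of wild-type animals at 4 Nieuwkoop-Faber (NF) stages. Premetamorphic tadpoles were taken at NF50, prometamorphic tadpoles at NF56, animals at the climax at NF62 and animals that had completed the change at NF66. There were 3 libraries a stage, with replicate numbers 1, 3 and 4 for NF50 and 1, 2 and 3 for NF56, NF62 and NF66. All groups share the genotype and the tissue and differ by stage, and the labels name no treatment, sex or age in days. The labels call the libraries biological replicates, and neither the number of animals behind a library nor any pooling is given in the sources used here. The p-values therefore measure the spread between these libraries.

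Cells build cholesterol from acetyl-CoA through the mevalonate pathway, which leads by way of isoprenoids and squalene to the first sterol and then, by trimming and reduction, to cholesterol. Transcription of most of these enzymes is driven by the sterol-sensing factors of the SREBP family, which are held back when membranes are rich in cholesterol. The brain makes nearly all of its own cholesterol, since lipoproteins hardly cross the blood-brain barrier in mammals, and myelin is rich in it.

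Library totals ran from 12046529 (NF56 replicate 3) to 31029733 (NF66 replicate 3) expected counts, and the 6 genes had between 195 and 11749 counts in a library. Levels are given as CPM, counts relative to the TMM-scaled library size, and levels per transcript length as TPM. Log2 fold changes put the later stage over the earlier one and carry a standard error (SE). They come from 1 quasi-likelihood model in edgeR that holds all 12 libraries. The words rose and fell are kept for genes with an adjusted p (Benjamini-Hochberg, 19584 models) under 0.05. The 11 neuronal marker genes, among them snap25 and syt1, summed to between 5412.8 and 7259.2 CPM in every library. In whole tissue, fewer cells of a type and less RNA per cell cannot be told apart.

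The stages differed for 6 of the 6 genes, with adjusted p between 0.000371 (acat2) and 0.0061 (lss), against 39.6% of all tested models. The mean CPM of hmgcs1, sqle, lss and stard4 was highest at the climax, the highest stage for 20.9% of all tested models. For lss it was 55.1 CPM there against 54.7 CPM at NF56 (0.01 ± 0.14, adjusted p = 0.984). The difference between these stages did not pass for sqle either (0.21 ± 0.17, adjusted p = 0.484), and for both genes the libraries overlapped. Only hmgcs1 and stard4 had NF62 libraries above all others. In TPM the mean of lss was higher at NF56 (55.7) than at NF62 (54.3). The mean CPM of acat2 was highest at NF56 and that of dhcr7 at NF50. For dhcr7 the means at NF50 and NF56 were 45.1 and 44.7 CPM (-0.01 ± 0.09, adjusted p = 0.948). In TPM dhcr7 was highest at NF56, at 84.8 against 66.7 at NF50. By mean CPM NF66 was the lowest stage for 5 of the 6 genes, as it was for 23.9% of all tested models, and stard4 was lowest at NF56. In TPM acat2, sqle, lss and dhcr7 were lowest at NF66 too, but the mean of hmgcs1 was 188.5 at both NF50 and NF66. In TPM stard4 was lowest at NF50, at 6.58 against 7.34 at NF56.

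**Figure D1:**
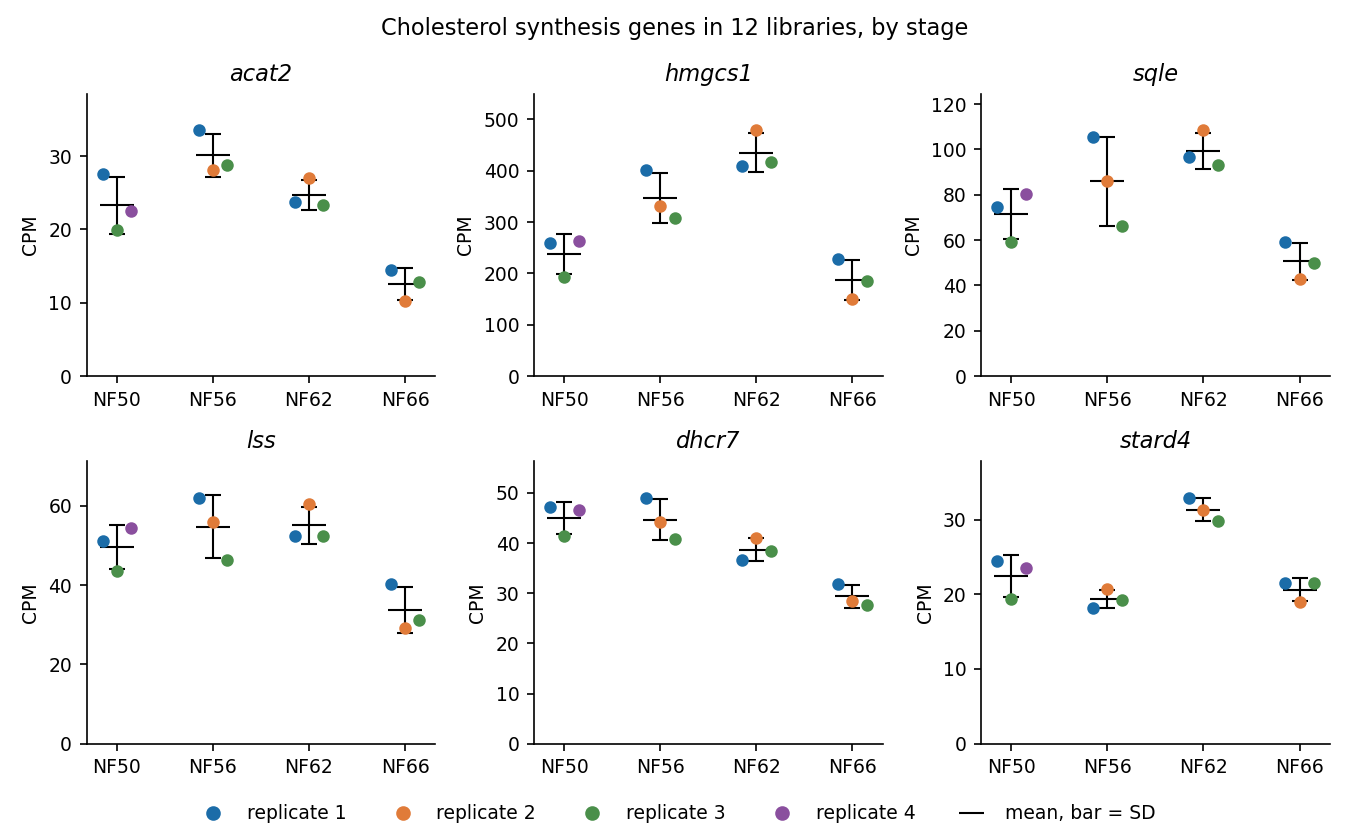
Level of each gene in the 12 libraries, in TMM-scaled CPM (vertical axes start at 0), by stage; points are libraries, horizontal lines the stage means and bars the SD (n = 3). The NF66 points lie below all NF62 points in each of the 6 panels, and hmgcs1 spans 150.4 to 478.8 CPM over the 12 libraries.

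The first cytosolic steps are those of acat2 and hmgcs1. The gene acat2 codes for the thiolase that joins acetyl-CoA units. It stood at 27.5, 19.9 and 22.5 CPM at NF50, at 33.5, 28.1 and 28.8 CPM at NF56, at 23.8, 27 and 23.3 CPM at NF62 and at 14.5, 10.2 and 12.9 CPM at NF66. The NF66 libraries were below every library of the other stages. The fall at NF66 against NF62 was -0.97 ± 0.15 on the log2 scale (SE, adjusted p = 0.0102), which is 1.96-fold, and against NF56 it was -1.26 ± 0.15 (adjusted p = 0.000194). At NF56 its libraries lay above those of NF50 without passing the test (0.37 ± 0.15, adjusted p = 0.121).

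The gene hmgcs1 codes for the cytosolic synthase that makes HMG-CoA, an early intermediate of the mevalonate pathway. Its CPM values were 259.6, 193.9 and 263.1 at NF50, 402.3, 332.3 and 308.9 at NF56, 410.1, 478.8 and 418.1 at NF62 and 227.5, 150.4 and 185.7 at NF66. The NF62 libraries were above all others, and the NF66 libraries overlapped those of NF50. The gene fell 2.32-fold at NF66 against NF62 (-1.21 ± 0.16, adjusted p = 0.00583), the largest log2 fold change among the 6 genes in that comparison. It rose at NF56 against NF50 (0.54 ± 0.16, adjusted p = 0.0472) and at NF62 against NF50 (0.87 ± 0.16, adjusted p = 0.00169). At NF62 it was above NF56 in every library without passing the test (0.32 ± 0.16, adjusted p = 0.205).

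Squalene epoxidase, coded by sqle, adds oxygen to squalene, and lanosterol synthase, coded by lss, closes the ring system of the first sterol. The level of sqle was 74.6, 59.1 and 80.4 CPM at NF50, 105.5, 86.1 and 66.1 CPM at NF56, 96.6, 108.4 and 93.2 CPM at NF62 and 59.3, 42.8 and 49.7 CPM at NF66. For lss the values were 51, 43.5 and 54.4 CPM at NF50, 62, 55.9 and 46.3 CPM at NF56, 52.3, 60.5 and 52.5 CPM at NF62 and 40.2, 29.3 and 31.3 CPM at NF66. For both genes the NF56 libraries were wide enough to overlap those of NF50 and NF62, and the NF66 libraries lay below those of NF62. At NF66 against NF62 sqle fell by a log2 fold change of -0.97 ± 0.17 (adjusted p = 0.0167) and lss by -0.71 ± 0.14 (adjusted p = 0.0249). Of the earlier steps, the largest for sqle was that of NF62 against NF50, at 0.48 ± 0.17 (adjusted p = 0.0521), with libraries that did not overlap.

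The reductase coded by dhcr7 acts late, on the sterol precursor that the skin also uses to make vitamin D. Its values were 47.2, 41.4 and 46.6 CPM at NF50, 49, 44.2 and 40.8 CPM at NF56, 36.6, 41 and 38.5 CPM at NF62 and 31.9, 28.5 and 27.7 CPM at NF66. Unlike hmgcs1 it had no higher level at the climax: the mean at NF62 was 38.7 ± 2.23 CPM (SD, n = 3), against 45.1 ± 3.21 CPM at NF50. Those libraries did not overlap, but the difference did not pass the test (-0.22 ± 0.09, adjusted p = 0.0779) and was 0.11 by limma on unscaled TPM. At NF66 dhcr7 fell against NF62 by the smallest log2 fold change of the 6 genes (-0.40 ± 0.09, adjusted p = 0.039), and against NF50 by -0.62 ± 0.09 (adjusted p = 0.000271).

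The sixth gene, stard4, is no enzyme of the pathway: it codes for a small soluble protein that carries cholesterol between membranes. It stood at 24.5, 19.3 and 23.5 CPM at NF50, at 18.2, 20.7 and 19.2 CPM at NF56, at 32.9, 31.3 and 29.8 CPM at NF62 and at 21.5, 18.9 and 21.5 CPM at NF66. The climax libraries were above all others, and the other stages overlapped each other. It rose at NF62 against NF56 (0.69 ± 0.10, adjusted p = 0.000878) and fell at NF66 against NF62 (-0.60 ± 0.10, adjusted p = 0.0125), and NF66 and NF50 differed by -0.12 ± 0.10 (adjusted p = 0.395; 0.19 by limma on unscaled TPM).

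Per length, hmgcs1 was the most abundant of the 6 transcripts at every stage and stard4 the least. The TPM of hmgcs1 was 188.5 ± 36.3 at NF50, 357 ± 46.8 at NF56, 432 ± 19.2 at NF62 and 188.5 ± 46.4 at NF66 (SD, n = 3 libraries each). That of stard4 was 6.58 ± 1.45, 7.34 ± 0.468, 11.5 ± 1.47 and 7.62 ± 1.26 TPM in the same order of stages. At NF62 sqle stood at 101 ± 4.83 TPM, dhcr7 at 71.2 ± 5.73 TPM, lss at 54.3 ± 2.29 TPM and acat2 at 41.5 ± 1.86 TPM. At NF66 dhcr7 had 54.1 ± 5.7 TPM and sqle 51.9 ± 10.8 TPM, values that do not differ beyond their spread, followed by lss with 33.3 ± 6.58 and acat2 with 21.4 ± 4.96 TPM. TPM carries no scaling between libraries: on log2(TPM + 1) the median log2 fold change of all tested models was 0.32 for NF56 against NF50 and 0.29 for NF66 against NF50, in place of -0.002 and 0.021 on scaled counts.

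The step of NF66 against NF62 covers the end of metamorphosis. Here 6 of 6 genes fell, against 3.15% of all tested models called in either direction and 1.79% called lower. Since the choice of the set followed earlier results of these data, this contrast is not a test of the set. The median log2 fold change of the 6 genes was -0.84, against 0.002 over all tested models. The libraries of the stages did not overlap, with NF66 lower, for 6 of 6 genes and for 10.6% of all tested models. The smallest fall was that of dhcr7 and the largest that of hmgcs1, as the plot of all tested models shows.

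**Figure D2:**
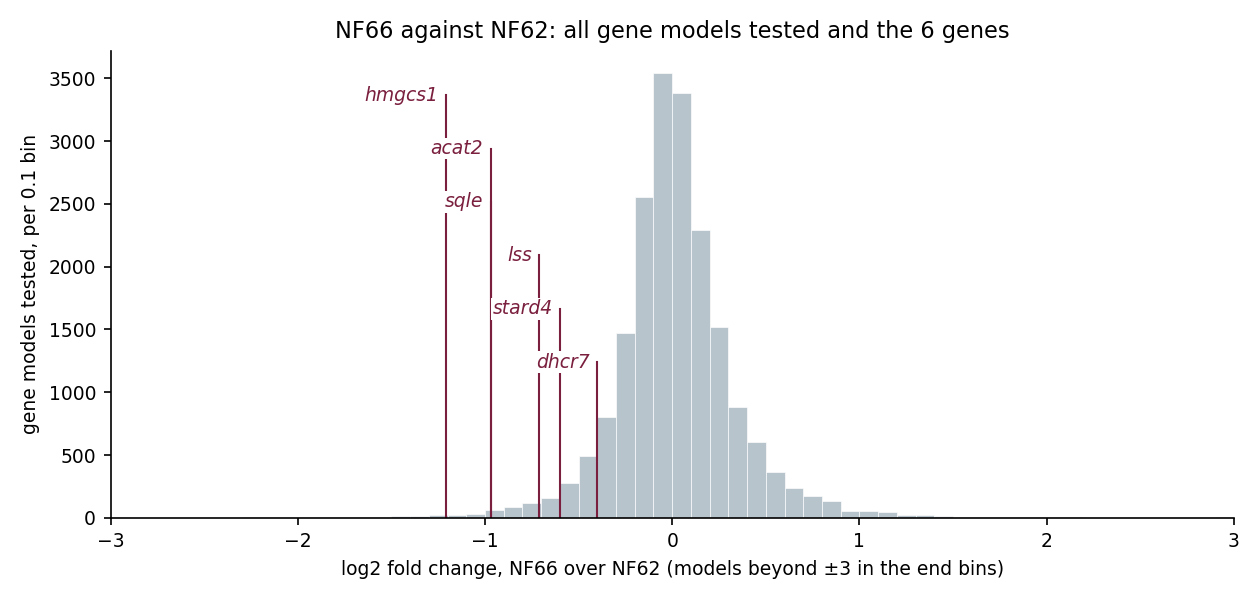
Number of tested gene models (vertical axis, bins of 0.1) by log2 fold change of NF66 over NF62 (horizontal axis, positive means higher at NF66), with a line at the value of each of the 6 genes; line heights only separate the names. The 6 lines lie between -1.21 and -0.40, and the median of all models is 0.002.

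The calls at NF66 against NF62 changed with the libraries and the method used. All 6 genes stayed below 0 in every fit made, and hmgcs1 and acat2 were called in all 12 of the fits that leave out 1 library (hmgcs1 -1.37 to -1.08, acat2 -1.09 to -0.85). The call of stard4 was lost without NF62 replicate 1 or NF66 replicate 2. That of sqle was lost without NF62 replicate 1, 2 or 3 or NF66 replicate 2, that of lss without those or NF66 replicate 3, and that of dhcr7 in 8 of the 12 fits. With only the NF66 and NF62 libraries in the edgeR fit 0 of the 6 genes were called (adjusted p 0.0754 to 0.147), and 0 by limma on log2(TPM + 1). In both, 6 of 6 had an unadjusted p below 0.05, and DESeq2 called 6.

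The first step, NF56 against NF50, covers the onset of metamorphosis. Of the 6 genes 1 rose, hmgcs1, where 14.5% of all tested models were called and 6.51% were called higher. The median log2 fold change of the 6 was 0.21. The libraries did not overlap, with NF56 higher, for 2 of the 6, hmgcs1 and acat2, and for 16.5% of all tested models. The call of hmgcs1 held in 3 of the 12 fits with 1 library left out (log2 fold change 0.39 to 0.62), those without NF62 replicate 2, NF66 replicate 1 or NF66 replicate 2, and the highest adjusted p was 0.175. The comparison of NF62 with NF56 covers the approach to the climax, and again 1 of the 6 genes rose, stard4, against 18.9% of models called and 9.95% called higher. In that step acat2 was at -0.29 ± 0.15 (adjusted p = 0.217), with NF62 libraries below all NF56 libraries. Whether hmgcs1 and stard4 differed in these steps was not tested.

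**Figure D3:**
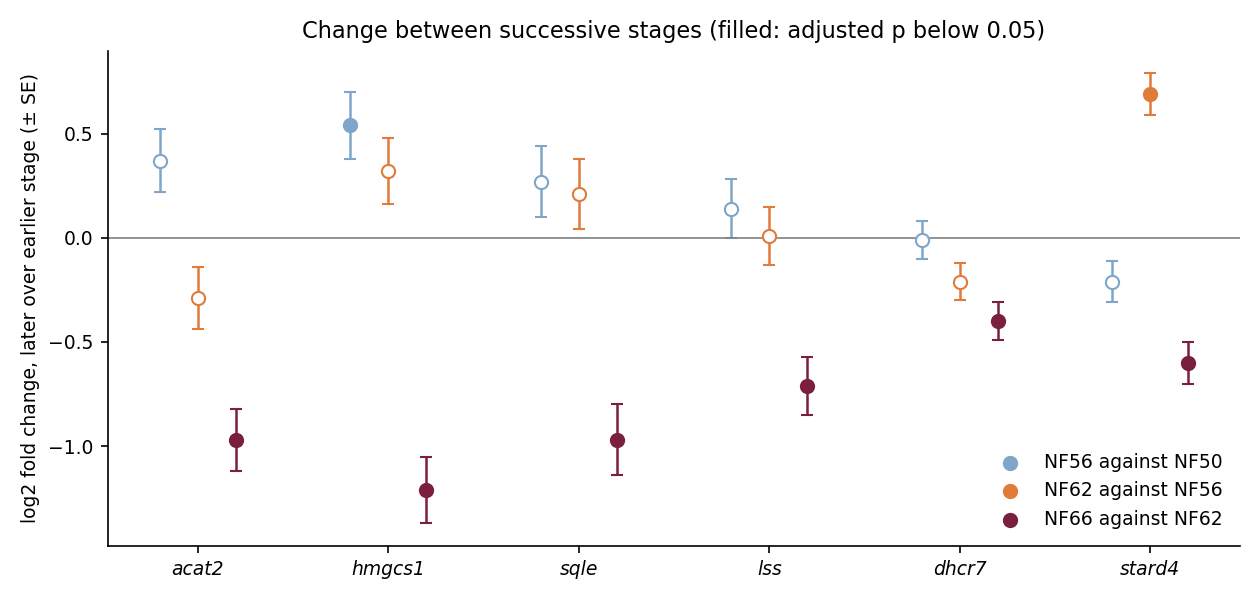
Log2 fold change (vertical axis, later over earlier stage, bars are ± SE) of each gene for NF56 against NF50, NF62 against NF56 and NF66 against NF62; filled points have an adjusted p below 0.05. The 6 points of NF66 against NF62 are filled and below 0, and in the earlier steps the filled points are hmgcs1 (0.54) and stard4 (0.69).

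Longer spans were compared in the same way. At NF62 against NF50, hmgcs1 and stard4 rose (2 of 6, against 35.0% of models called and 17.1% called higher), stard4 by 0.48 ± 0.10 (adjusted p = 0.00309). At NF66 against NF50, 4 of 6 fell, against 36.7% of models called and 18.8% called lower. These were acat2 (-0.89 ± 0.15, adjusted p = 0.000771), dhcr7, lss (-0.56 ± 0.14, adjusted p = 0.00897) and sqle (-0.49 ± 0.17, adjusted p = 0.0456). The libraries did not overlap, with NF66 lower, for 3 of the 6 genes and for 24.0% of all tested models. Those of sqle overlapped, and its call was lost in 7 of the 12 fits with 1 library left out and when the counts of both sqle models were summed (-0.34, adjusted p = 0.121). The remaining genes, hmgcs1 (-0.35 ± 0.16, adjusted p = 0.123) and stard4, did not pass. On log2(TPM + 1) without scaling 0 of the 6 genes were called at NF66 against NF50 by limma and 1 had an unadjusted p below 0.05. At NF66 against NF56, 5 of 6 fell, all but stard4 (0.09 ± 0.10, adjusted p = 0.619), against 21.1% of models called and 10.1% called lower.

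In CPM the libraries of a stage stood in a similar order for most of these genes. At NF50, replicate 3 was the lowest library for 6 of 6 genes. At NF56, replicate 1 was the highest for 5 and replicate 3 the lowest for 4. At NF62, replicate 2 was the highest for 5, and at NF66 replicate 1 was the highest for 5 and replicate 2 the lowest for 5. The order was not the same in unscaled TPM. There NF50 replicate 4, NF62 replicate 2 and NF66 replicate 2 were the lowest of their stage for each gene. The TPM of the 6 genes summed to 457, 406.4 and 306.7 at NF50 and 740.4, 594.5 and 606.9 at NF56. It summed to 720.6, 673.8 and 740.1 at NF62 and 412.4, 271.3 and 387 at NF66. The CPM of the 6 genes summed to 484.5, 377.1 and 490.5 at NF50, 670.6, 567.3 and 510.2 at NF56, 652.3, 747.2 and 655.5 at NF62 and 394.9, 280 and 328.9 at NF66. Within NF66 the highest library of hmgcs1 was 51.3% above the lowest. In a fit without NF62 replicate 2 and NF66 replicate 2, chosen after these values were seen, the log2 fold changes of NF66 against NF62 kept their sign (acat2 -0.78, dhcr7 -0.33) and 0 of 6 genes were called by edgeR, with 6 at an unadjusted p below 0.05.

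Over the 12 libraries the log2 CPM of sqle had a Pearson correlation of 0.97 with the mean of the other 5 genes, lss 0.96, hmgcs1 0.90, acat2 0.87, dhcr7 0.70 and stard4 0.39. These values describe points that share libraries, depth and stage. Among named models outside the set, those most correlated with the mean of the 6 genes were cpe (0.978), map3k7 (0.973), cyp51a1 (0.968), ccng1 (0.961) and acss2.2 (0.952). After them came ap1ar/casp6 (0.925), tubb2b (0.924), surf4.2 (0.918), c19orf56/dhps (0.906) and abcd3 (0.904), of which the names with a slash are merged models. These models were picked for a pattern that is low at NF66, so their differences between NF66 and NF62 are a description. The log2 fold change of NF66 against NF62 was -0.93 for cpe, -0.83 for tubb2b, -0.80 for acss2.2 and -0.13 for map3k7.

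Further enzymes of the route were read from a list of 14 names, of which 9 matched a model and 8 were tested. The model named msmo1 stayed at or below 0.419 CPM in every library, was not tested and is not read as the level of that gene. At NF66 against NF62, the test was passed by 2 of the 8, both lower, and 6 did not pass it. Of all tested models 1.79% were called lower there. The median was -0.37 and 8 of 8 values were below 0. By DESeq2 4 fell, and 7 of the 8 had an unadjusted p below 0.05 by edgeR. With only the libraries of those stages 0 of the 8 were called. Without NF62 replicate 3 or NF66 replicate 2 there was 1 call, and 2 in the other fits with 1 library left out.

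The decarboxylase gene mvd, which ends the mevalonate steps, had 23.8, 19.3 and 20.9 CPM at NF66, against 36.2, 38.2 and 35.9 CPM at NF62 (-0.78 ± 0.10, adjusted p = 0.00483). The lanosterol demethylase gene cyp51a1 had 57.2, 39.9 and 46.4 CPM at NF66, against 81.3, 90.7 and 82.4 CPM at NF62 (-0.83 ± 0.14, adjusted p = 0.0139). In both genes the NF66 libraries lay below all NF62 libraries. The enzymes that did not pass were the mevalonate kinase gene mvk (-0.42 ± 0.13, adjusted p = 0.118), sc5d (-0.45 ± 0.13, adjusted p = 0.0954), lbr (-0.31 ± 0.10), nsdhl (-0.30 ± 0.10), tm7sf2 (-0.26 ± 0.11) and hsd17b7 (-0.02 ± 0.14).

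**Figure D4:**
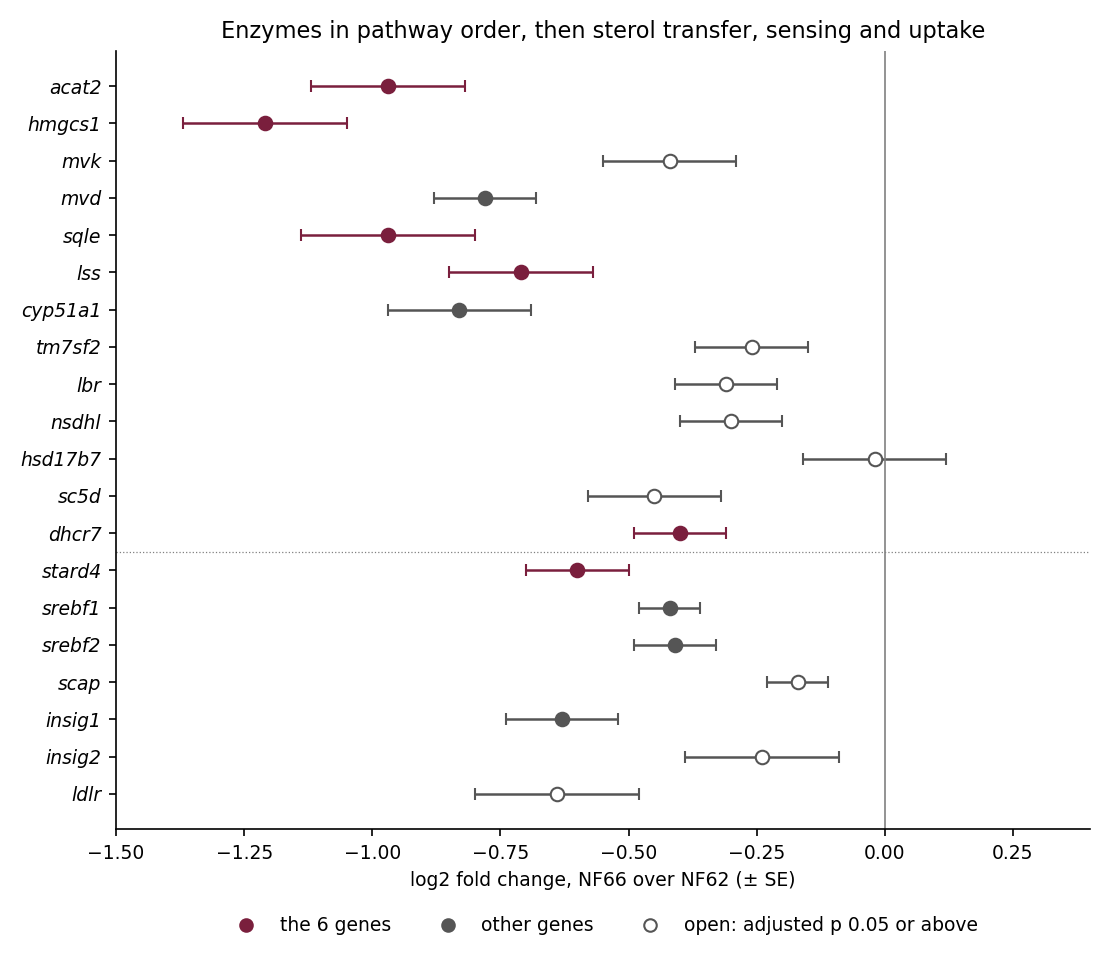
Log2 fold change of NF66 over NF62 (horizontal axis, bars are ± SE) for enzymes in pathway order and, below the dotted line, stard4 and selected genes of sterol sensing and uptake; filled points have an adjusted p below 0.05. The points shown lie below 0, from hmgcs1 at -1.21 to hsd17b7 at -0.02, whereas over the whole lists 7 of 10 tested sensing genes and 10 of 19 tested uptake and turnover genes were below 0; the scap model is merged with bcas2.

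The enzymes were not alike over the earlier stages. The gene mvd was already lower at NF62 than at NF56 (-0.38 ± 0.10, adjusted p = 0.0225). Without NF62 replicate 1 there were 0 calls in the list in that step. The sterol reductase gene lbr, whose protein also anchors chromatin at the nuclear envelope, followed another course: 18.9, 20.4 and 18.8 CPM at NF50, 10.3, 10.2 and 12 CPM at NF56, 7.52, 8.48 and 8.52 CPM at NF62 and 6.65, 6.29 and 6.8 CPM at NF66. The libraries of successive stages did not overlap, and lbr fell at NF56 against NF50 (-0.84 ± 0.10, adjusted p = 0.00044), at NF62 against NF56 (-0.41 ± 0.10, adjusted p = 0.0142) and at NF66 against NF50 (-1.56 ± 0.10, adjusted p = 9.98e-07). At NF62 against NF50, mvk (0.52 ± 0.13), cyp51a1 (0.49 ± 0.14) and sc5d (0.37 ± 0.13) rose, 3 of the 8 tested. Of all tested models 35.0% were called there and 17.1% called higher. In the same comparison 1 gene, lbr, fell (-1.24), 4 did not pass, and 4 of the 8 values were below 0. The count of rises in the list was 1 to 4 with 1 library left out.

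Genes of sterol sensing and control were 10 tested of 14 listed. At NF66 against NF62, 3 of them fell and 7 did not pass, where 1.79% of all tested models were called lower. The median was -0.15, and 1 to 3 were called with 1 library left out and 0 with only those stages in the fit. The gene insig1, whose protein retains the SREBP escort in the endoplasmic reticulum and is itself an SREBP target, had 78.8, 66 and 79.9 CPM at NF50, 114.5, 98.5 and 91.9 CPM at NF56, 130.1, 133.8 and 125.8 CPM at NF62 and 96.9, 73.6 and 81.2 CPM at NF66. Its NF62 libraries were above all others. It rose at NF56 against NF50 (0.44 ± 0.11, adjusted p = 0.0249) and fell at NF66 against NF62 (-0.63 ± 0.11, adjusted p = 0.0167).

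The gene srebf2 codes for the SREBP that acts mainly on sterol genes, and srebf1 for the family member tied more to fatty acids. At NF66 srebf2 had 206.7, 165.3 and 210 CPM, against 255.6, 252.1 and 263.8 CPM at NF62 (-0.41 ± 0.08, adjusted p = 0.0282). At NF66 srebf1 had 47, 45.7 and 51.7 CPM, against 64.5, 64.6 and 64.9 CPM at NF62 (-0.42 ± 0.06, adjusted p = 0.00931). The NF66 libraries of both lay below those of NF62. Of the pair, srebf1 also rose at NF62 against NF56 (0.41 ± 0.06, adjusted p = 0.00125), while srebf2 was at -0.06 ± 0.08 (adjusted p = 0.733). The scap model, which is merged with bcas2 so that its reads are of either gene, was at -0.17 for NF66 against NF62 and did not pass.

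Genes that bring in, store, export or degrade sterols were 19 tested of 27 listed, with a median log2 fold change of -0.00 at NF66 against NF62 and 10 of 19 values below 0. The NF66 libraries lay wholly below those of NF62 for 3 of them and wholly above for 3. They lay wholly below for 10.6% of all tested models, and the share wholly above is not given here. Of the 19, 1 rose at NF66 against NF62, the cholesterol-esterifying plasma enzyme gene lcat at 4.91 ± 0.737 CPM, against 3.02 ± 0.0674 CPM at NF62 (0.70 ± 0.16, adjusted p = 0.045), and 0 fell. In 11 of the 12 fits with 1 library left out 0 genes of the list were called there, 6 of the 19 had an unadjusted p below 0.05 by edgeR, and by DESeq2 1 rose and 1 fell. The LDL receptor gene ldlr, an SREBP target, had 54.9, 36.5 and 60 CPM at NF66, against 85.3, 73.6 and 78 CPM at NF62, libraries that did not overlap (-0.64 ± 0.16, adjusted p = 0.0641). It fell at NF66 against NF56 (-0.82 ± 0.16, adjusted p = 0.00475). Its correlation with the mean of the 6 genes over the 12 libraries was 0.84.

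Apolipoprotein E, coded by apoe, carries cholesterol between brain cells in mammals, abca1 codes for a cholesterol exporter and nceh1 for a cholesterol ester hydrolase. The level of apoe was 15.9, 11.3 and 15.3 CPM at NF50, 33.1, 37 and 34.7 CPM at NF56, 40.8, 37.5 and 49.7 CPM at NF62 and 65.1, 52.1 and 51.6 CPM at NF66. The gene rose at NF56 against NF50 (1.30 ± 0.15, adjusted p = 0.000449) and at NF66 against NF50 (1.99 ± 0.15, adjusted p = 3.4e-06). At NF66 abca1 had 60.7, 80.5 and 56.2 CPM, against 39.5, 31.3 and 46.6 CPM at NF50 (0.75 ± 0.20, adjusted p = 0.012). The name abca1 is on 2 models, and these values are of the model with more counts. The gene nceh1 rose at NF62 against NF56 (0.69 ± 0.09, adjusted p = 0.000418), as did the sterol transporter gene abcg4 (0.51 ± 0.07, adjusted p = 0.000852), and neither passed at NF66 against NF62. The largest rise in that step was that of cyp27a1, a sterol hydroxylase gene, at 2.5 CPM at NF62 against 1.05 CPM at NF56 (1.26 ± 0.27, adjusted p = 0.00826). In that list 6 of 19 genes rose and 1, ldlr, fell at NF66 against NF50, in both directions together a share near the 36.7% of all tested models called there. By direction the list differed from all tested models, of which 18.8% were called lower and whose calls were 48.7% higher.

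**Figure D5:**
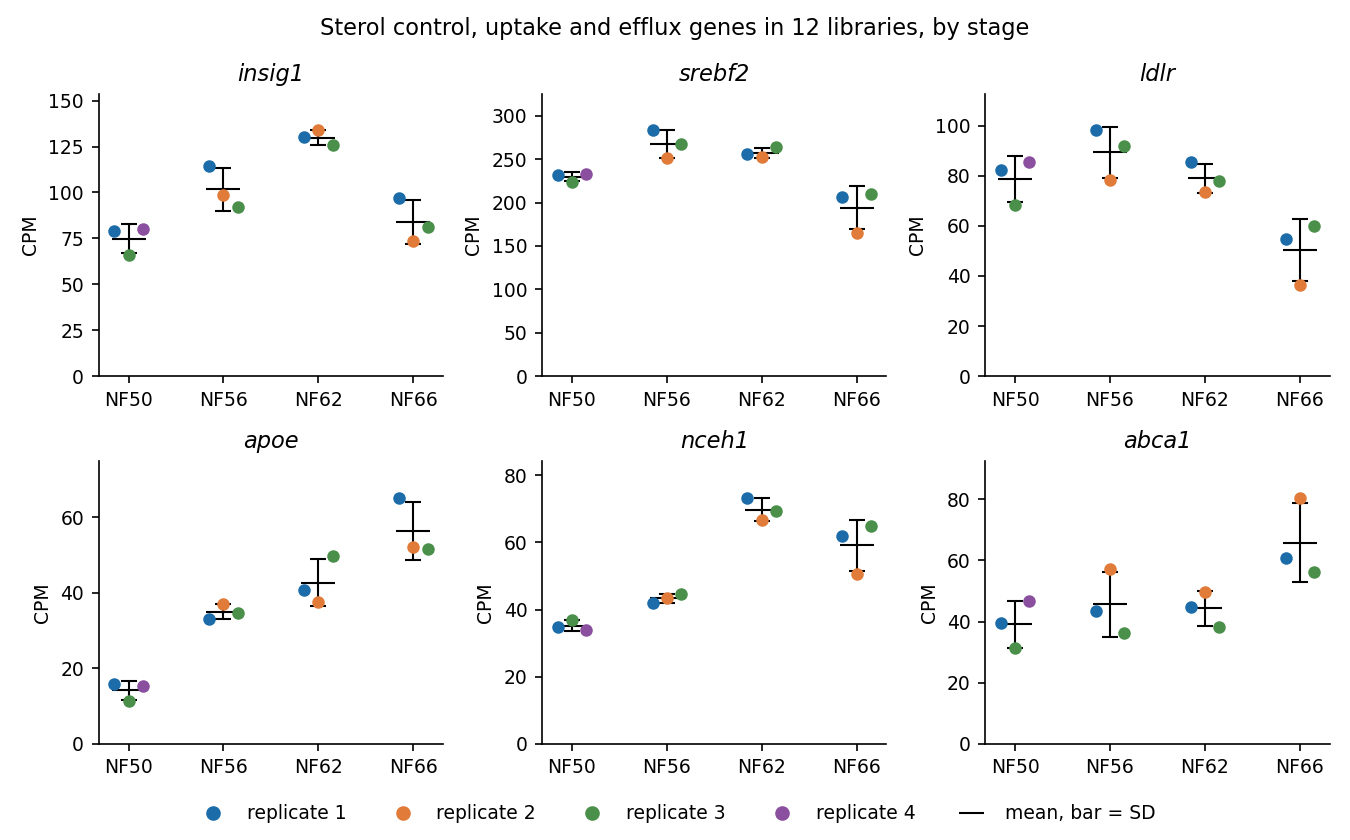
Level of insig1, srebf2, ldlr, apoe, nceh1 and abca1 in the 12 libraries, in TMM-scaled CPM (vertical axes start at 0), by stage; points are libraries, horizontal lines the stage means and bars the SD (n = 3). The NF62 points of insig1 lie above all others, and apoe spans 11.3 CPM at NF50 to 65.1 CPM at NF66. For abca1, whose name is on 2 models, the model with more counts is shown.

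Branches that share the isoprenoid precursors but make dolichol, ubiquinone or protein prenyl groups were 10 tested genes. At NF66 against NF62 0 of them were called by edgeR and 0 by DESeq2, and 2 had an unadjusted p below 0.05 (median -0.05, from -0.20 to 0.30). With 3.15% of all tested models called there by edgeR, 0 of 10 does not set this list apart from them. Of 9 tested genes of fatty acid synthesis, 2 fell at NF66 against NF62, where 1.79% of all tested models were called lower. The fatty acid synthase gene fasn had 412, 345.5 and 391.2 CPM at NF66, against 532.3, 540.4 and 539.8 CPM at NF62 (-0.49 ± 0.07, adjusted p = 0.00786). The desaturase gene scd had 513.9, 479.5 and 508.9 CPM at NF66, against 657.1, 670.8 and 644.1 CPM at NF62 (-0.39 ± 0.05, adjusted p = 0.00511). For both, the NF66 libraries lay below all NF62 libraries, and both were higher at NF62 than at NF56, scd by 0.21 ± 0.05 (adjusted p = 0.017) and fasn by 0.26 ± 0.07 (adjusted p = 0.0259).

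Markers of cell types moved with the stages as follows, and their part in the results was not tested. At NF66 against NF62, 3.15% of all tested models were called and 1.79% called lower, and 43.3% of the calls were higher. There 1 of 8 oligodendrocyte and myelin genes rose, the myelin basic protein gene mbp (0.37 ± 0.08, adjusted p = 0.0383). The list summed to 1910 to 2721.9 CPM at NF66, against 1619.7 to 1963 CPM at NF62. In the step of NF62 against NF56, 6 of those 8 genes rose, against 18.9% of all tested models called and 9.95% called higher. Their sums were 1619.7 to 1963 CPM at NF62, against 1082.2 to 1143.6 CPM at NF56. In the same step 7 of 11 neuronal genes rose and 1 fell. Lower calls there were 4 of 9 genes of astrocytes and radial glia and 3 of 4 red blood cell genes. Of 9 genes of astrocytes and radial glia 1 fell at NF66 against NF62, fabp7 (-0.98 ± 0.06, adjusted p = 9.69e-05), with sums of 1189.2 to 1363.2 CPM at NF66 and 1235.1 to 1434.4 CPM at NF62. Most of each sum was slc1a3, at a mean of 831.4 CPM at NF66 and 785.5 CPM at NF62, whereas fabp7 had means of 62.9 and 124.5 CPM. Of 11 neuronal genes 0 were called by edgeR there, with 3 at an unadjusted p below 0.05 and 1 called by DESeq2, and their sums were 6586.2 to 6877.9 CPM at NF66 and 6798.1 to 7259.2 CPM at NF62.

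Markers of the pituitary, of choroid plexus and ependyma and of further cell types were read in the same way. At NF66 against NF62, 3.15% of all tested models were called and 1.79% called lower, and their median log2 fold change was 0.002. Of 5 tested pituitary genes 5 were below 0 at NF66 against NF62, with a median of -1.27, and 4 had an unadjusted p below 0.05. By edgeR 1 of them fell, the growth hormone gene gh1 (-1.68 ± 0.29, adjusted p = 0.0152), and DESeq2 called 2. The list summed to 26.6 to 70.3 CPM at NF66, against 74.9 to 111.4 CPM at NF62. The largest part was pomc, at a mean of 35.9 CPM at NF66 and 54.1 CPM at NF62. Of 5 tested genes of choroid plexus and ependyma 4 were below 0 and 3 had an unadjusted p below 0.05. By edgeR 1 fell, otx2 (-0.44 ± 0.08), and DESeq2 called 2, with sums of 109.7 to 141.6 CPM at NF66 and 124.1 to 147.8 CPM at NF62. Most of each sum was the kcnj13 model, which is merged with gigyf2, at a mean of 88.2 CPM at NF66 and 84.8 CPM at NF62. Not called by edgeR, clic6 had a mean of 4.82 CPM at NF66 and 9.03 CPM at NF62, msx1 0.954 and 2.08 CPM and foxj1 4.16 and 5.38 CPM. Of 7 genes of dividing cells 1 fell, cdk1 (-1.75 ± 0.38), from a mean of 1.59 CPM at NF62 to 0.428 CPM at NF66. The list summed to 350.1 to 363.2 CPM at NF66 and 358.1 to 381.9 CPM at NF62. Most of each sum was mcm2, at a mean of 233.6 CPM at NF66 and 229 CPM at NF62. The models of pcna and mcm5 are merged with figla and ndufa6. By edgeR 0 of 6 microglial, 0 of 7 vascular and 0 of 4 red blood cell genes were called at NF66 against NF62, with 0, 3 and 1 at an unadjusted p below 0.05 and 0, 0 and 1 called by DESeq2. Their sums at NF66 were 63.4 to 82.1 CPM for microglia, 104.7 to 138.9 CPM for vessels and 291.6 to 526.8 CPM for red blood cells, against 55.7 to 93.1, 121.5 to 141.9 and 374.3 to 555.5 CPM at NF62. The largest part for red blood cells was the hba3 model, which is merged with hba4, at a mean of 276.1 CPM at NF66 and 300.1 CPM at NF62.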

How the data were processed

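Expected counts from RSEM were deposited by the authors for 33875 gene models, as a matrix and in a table per library that also holds TPM and effective lengths, per the file headers. Per the submitters' processing notes CASAVA 1.8.2, cutadapt, Bowtie, RSEM and DESeq2 were used, with no role given. The genome build and annotation were not given in the sources used here. No coordinates are therefore printed. Lines repeated for models with several annotated genes (35241 lines per table) were read once per model. The expected counts, of which 53.7% were not whole, were rounded to whole numbers. Models were kept by filterByExpr (edgeR 4.0.16, R 4.3.3, minimum count 10), which left 19584, scaled by TMM and fitted with edgeR's quasi-likelihood test on stage over all 12 libraries, with 6 contrasts between stages. Alternatives used DESeq2 1.42.0, limma 3.58.1 on log2(TPM + 1), other scalings and filters, and left out libraries. The fit was tried on simulated data with independent libraries and the same spread for every model, below the common spread of these data. That trial does not show how the fit performs on these libraries.

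The genes of the set and the wider lists were chosen with earlier results of these data known. All genes of the set are reported whatever their values. The other enzymes, srebf1, srebf2, scap, insig1, insig2, ldlr, npc1, abca1, apoe and cyp46a1 could be named likewise. Other lists give at most the 3 members with the largest log2 fold change past the threshold in a contrast. Genes of similar pattern are the 10 named models most correlated with the mean standardised log2 CPM (prior count 2) of the set. Some of what the wider lists named is not reported here. Cell type markers are named as examples, where they passed at NF66 against NF62, or in some lists where a model is merged or made up much of a sum. Tested genes of choroid plexus and ependyma that did not pass are named too. Intervals of counting error are not given, because the spread between libraries is.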

Additional observations from a re-analysis of the deposited data

How the results depend on the processing

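The log2 fold changes of the 6 genes at NF66 against NF62 kept their sign in every setting tried. The number of the 6 genes called there was 6, and became 0 by limma on log2(TPM + 1), 0 when the fit held only the NF66 and NF62 libraries, 0 without NF62 replicate 2 and NF66 replicate 2 together (chosen after seeing the data) and 2 to 6 with 1 library left out. For NF56 against NF50 it was 1, and 0 with no filter on low counts (2 genes at an unadjusted p below 0.05) and 0 to 1 with 1 library left out. Without NF50 replicate 3 the 1 call was stard4, lower (-0.33, adjusted p = 0.0493), and hmgcs1 was not called (0.39). For NF62 against NF56 it was 1, and 0 by limma (1 at an unadjusted p below 0.05). For NF66 against NF50 it was 4, and 0 by limma and 3 to 5 with 1 library left out. With 1 library left out the count was 2 to 3 for NF62 against NF50, where without NF50 replicate 3 dhcr7 was called lower (-0.30, adjusted p = 0.0315), and 5 to 5 for NF66 against NF56, where limma called 4. The cause of these changes was not tested.

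Over all genes the counts called moved as follows. NF56 against NF50 had 2834, and 455 by limma, 5436 with the replicate block and 1606 to 3059 with 1 library left out. NF62 against NF56 had 3705, and 447 by limma, 5900 with the replicate block and 2476 to 3911. NF66 against NF62 had 617, and 1366 by DESeq2, 3 by limma, 363 with no filter, 4 with only those stages, 62 without NF62 replicate 2 and NF66 replicate 2, 2010 with the replicate block and 113 to 561. NF62 against NF50 had 6847, and 3984 by limma and 5373 to 7194. NF66 against NF50 had 7196, and 4566 by limma and 5897 to 7481. NF66 against NF56 had 4136, and 818 by limma, 6400 with the replicate block and 2905 to 4295. Without a scaling factor the share of calls that were higher was 60.9% in place of 45.0% for NF56 against NF50 and 53.7% in place of 43.3% for NF66 against NF62. By limma on unscaled TPM it was 73.2% for NF56 against NF50, 38.7% in place of 52.6% for NF62 against NF56, 77.9% in place of 48.8% for NF62 against NF50 and 78.8% in place of 48.7% for NF66 against NF50. Same-numbered libraries do not form pairs by the labels. The deviations from the stage means correlated at 0.45 to 0.64 in the 9 couples of libraries numbered 2 or 3 and at -0.18 to 0.09 in the 6 couples numbered 1. Since not every couple exceeded 0.1, the numbers were not taken as pairs. The fit to all 12 libraries therefore treats them as independent and leaves out what those numbered 2 or 3 share. The replicate block called 6 of the 6 genes at NF66 against NF62.

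Signs turned only for genes not called in the fit to all 12 libraries, of which stard4 at NF56 against NF50 and dhcr7 at NF62 against NF50 were called lower without NF50 replicate 3. For dhcr7 at NF56 against NF50, reported as -0.01, the log2 fold change was 0.07 without a scaling factor, 0.37 by limma, 0.01 with the replicate block and -0.09 to 0.05 with 1 library left out. For stard4 by limma it was 0.16 at NF56 against NF50 and 0.19 at NF66 against NF50. For lss at NF62 against NF56 it was -0.02 without a scaling factor, -0.03 by limma, -0.07 without NF62 replicate 2 and NF66 replicate 2 and -0.10 to 0.11 with 1 library left out. For NF62 against NF50, dhcr7 was at 0.11 by limma and acat2 at -0.04 to 0.22 with 1 library left out.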

Other observations

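The name sqle was also on a second gene model, with 120 to 960 counts in a library and between 10.7% and 43.4% of the counts of both models. Its level was 14.7, 16.9 and 9.87 CPM at NF50, 33.8, 18.6 and 50.7 CPM at NF56, 38, 13 and 41 CPM at NF62 and 16.2, 6.29 and 26.9 CPM at NF66. The libraries of a stage differed more here than in the model with more counts, and the model was not called in any of the 6 comparisons (NF66 against NF62 -0.88 ± 0.54, adjusted p = 0.489 by edgeR). The share of this second model went with the replicate number. It was highest in replicate 3 at each stage (22.2%, 43.4%, 30.5% and 35.1% from NF50 to NF66). At NF56, NF62 and NF66 it was lowest in replicate 2 (17.8%, 10.7% and 12.8%). The cause was not tested. With the counts of both models summed, 6 of the 6 genes were called at NF66 against NF62, sqle was no longer called at NF66 against NF50 (-0.34, adjusted p = 0.121), and it was called higher at NF62 against NF50 (0.61, adjusted p = 0.0114).

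Genes that turn cholesterol into steroids were 5 tested of 7 listed. The aromatase gene cyp19a1, whose enzyme makes estrogens, stood at 11.3, 10.8 and 8.31 CPM at NF50, 7.35, 8.45 and 7.47 CPM at NF56, 22.9, 21.2 and 22.9 CPM at NF62 and 20.2, 30.9 and 32.7 CPM at NF66. It rose at NF62 against NF56 (1.53 ± 0.18, adjusted p = 0.000233), with every NF62 library above every NF56 library, and did not pass at NF66 against NF62 (0.32 ± 0.17, adjusted p = 0.392). The gene star, which codes for the protein that hands cholesterol to mitochondria, averaged 0.722 CPM at NF62 and 0.157 CPM at NF50 (2.11 ± 0.49, adjusted p = 0.00641), a low level at both stages.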
